A study of Mus musculus with 4 samples.

Results

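The genes of the mevalonate and isoprenoid steps of cholesterol synthesis were followed in differentiated neural cultures from APPswe/PS1dE9 and wild-type (WT) mouse embryos. The list held 9 genes, Acat2, Hmgcs1, Mvk, Pmvk, Mvd, Idi1, Fdps, Fdft1 and Ggps1, of 20887 genes with a named probe on the array. Their RefSeq accessions matched 13 probes, and the value of a gene is that of its brightest probe above background. The pathway was chosen from the genotype log2 ratios of these same arrays, where cholesterol synthesis genes were low in APPswe/PS1dE9 cultures, so those ratios are given here as a description, and no test of them is offered as support.

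APPswe/PS1dE9 cultures carry the transgenes of a mouse model of familial Alzheimer's disease, in the widely used line driven by the mouse prion promoter. Both genotypes were of the C57BL/6 strain. Precursor cells were taken from the telencephalon at embryonic day 13, grown in EGF and FGF2 as neurospheres (5 days), and differentiated for 7 days without these factors on poly-L-lysine and laminin. Each of 4 two-colour arrays compared 1 APPswe/PS1dE9 RNA with 1 WT RNA, with the dyes swapped between pairs of arrays: APPswe/PS1dE9 RNA carried Cy3 on replicates 1 and 2 but Cy5 on replicates 3 and 4. The series design calls the replicates biological without saying whether they came from separate embryos or litters, so the spread between arrays may be partly technical. Each error combines the spread of a gene's own arrays with a variance common to all features. It does not measure the spread of that gene alone.

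The mevalonate pathway builds isoprenoids and sterols from acetyl-CoA. Acat2 and Hmgcs1 condense acetyl units to HMG-CoA, which is reduced to mevalonate, a set of kinases and a decarboxylase turns mevalonate into isopentenyl diphosphate, and prenyltransferases extend it. At farnesyl diphosphate the pathway branches: Fdft1 commits it to squalene and sterols, and Ggps1 makes geranylgeranyl diphosphate for protein prenylation. When sterols are scarce, the transcription factor SREBP2 raises most of these genes together, often with NF-Y bound nearby. The brain makes its own cholesterol, since plasma lipoproteins do not cross the blood-brain barrier, and astrocytes supply much of it to neurons.

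Promoters show what the members share in sequence apart from their ratios. The RefSeq promoter table (GRCm38.p6, 250 bases before to 50 after a start) held 8 promoters of 7 members; Fdps and Fdft1 were not in it. Shown are the genes with the lowest ratios, Hmgcs1 and Idi1, the gene with the most NF-Y matches, Mvk, and the gene with the ratio nearest to 0, Ggps1. They are read 5′ to 3′ in the direction of the gene. Capitals mark TCACNCCAC, the pattern searched for SREBP, and CCAAT, the pattern searched for NF-Y, on either strand.
Hmgcs1: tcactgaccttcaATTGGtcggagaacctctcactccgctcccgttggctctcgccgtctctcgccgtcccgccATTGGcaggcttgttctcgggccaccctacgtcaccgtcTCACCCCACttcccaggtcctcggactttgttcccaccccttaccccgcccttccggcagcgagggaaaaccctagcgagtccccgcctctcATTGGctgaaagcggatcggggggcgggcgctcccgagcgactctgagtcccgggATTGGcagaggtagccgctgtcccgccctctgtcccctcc
Idi1: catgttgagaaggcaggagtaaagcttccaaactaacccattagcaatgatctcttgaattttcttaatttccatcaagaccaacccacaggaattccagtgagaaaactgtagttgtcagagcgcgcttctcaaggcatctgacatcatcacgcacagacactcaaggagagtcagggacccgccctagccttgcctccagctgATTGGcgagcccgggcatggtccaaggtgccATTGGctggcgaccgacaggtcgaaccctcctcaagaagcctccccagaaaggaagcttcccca
Mvk: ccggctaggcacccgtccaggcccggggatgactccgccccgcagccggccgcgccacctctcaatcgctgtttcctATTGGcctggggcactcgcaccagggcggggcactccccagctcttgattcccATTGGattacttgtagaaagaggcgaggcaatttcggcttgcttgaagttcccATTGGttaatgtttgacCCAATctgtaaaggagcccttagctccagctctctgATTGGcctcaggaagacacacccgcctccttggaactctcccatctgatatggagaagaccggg
Ggps1: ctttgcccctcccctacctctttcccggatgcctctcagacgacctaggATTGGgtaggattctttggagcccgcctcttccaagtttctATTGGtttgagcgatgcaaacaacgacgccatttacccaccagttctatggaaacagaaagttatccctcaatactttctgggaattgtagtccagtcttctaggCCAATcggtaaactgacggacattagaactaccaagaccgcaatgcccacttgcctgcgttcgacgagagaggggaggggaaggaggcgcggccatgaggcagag

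These windows lie at chr13:119690101-119690400 (plus strand) for Hmgcs1, chr13:8885356-8885655 (plus) for Idi1, chr5:114444019-114444318 (plus) for Mvk and chr13:14063439-14063738 (minus) for Ggps1. Only the Hmgcs1 window, of the 8 searched, held TCACNCCAC, as the classical form TCACCCCAC that begins 137 bases before the start. TCACNCCAC occurred in 1.24% of the 32851 promoters in the table, and TCACCCCAC in 0.551%. Of 10 genes of the steps from squalene to cholesterol in that table, 0 held either. The shorter CCAAT was in promoters of 6 of the 7 members, which is 6 of their 8 promoters, and in 37.4% of all promoters. It had 5 matches in Mvk, 4 in Hmgcs1, 3 in Ggps1, 2 each in Idi1 and Mvd and 1 in Pmvk. The Sp1 letters GGGCGG were in 5 of the 7 (5 of the 8 promoters, beside 35.7% of all promoters), and the E-box CACGTG in none (7.15%). CCAAT was thus present in Ggps1, whose ratio was near 0, as well as in the genes of lowest ratio. Of the same 10 genes of the steps from squalene to cholesterol, 10 held the NF-Y pattern, 10 the Sp1 letters and 3 the E-box. The NF-Y and Sp1 patterns were therefore not particular to the members. A match describes letters in this window and is not a measured binding site, and the lack of a match does not show that a site is absent.

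Feature Extraction called 47.5% to 59.6% of the 59305 spots with probes well above background, depending on array and dye, and flagged 0 spots as saturated. Of 55681 probes, 26884 passed the filter on dim probes, which gave 20572 features. Tubb3, Gfap, Nes, Mbp and Mki67, markers of neurons, astrocytes, progenitors, oligodendrocytes and dividing cells, were above background in both genotypes on all 4 arrays. App was at a log2 ratio of 0.12 ± 0.06 (limma adjusted p = 0.281) and Prnp, the prion gene, at 0.75 ± 0.20 (limma adjusted p = 0.0656). Whether these probes can detect the transgenes is not known, so they do not check the labels.

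Markers of other cell types differed between the genotypes beside the pathway. Of 10 measured microglia markers, 9 were higher in APPswe/PS1dE9 (8.27% of all features were), with a mean log2 level over the 9 genes present on every array of 9.48 to 9.77 in APPswe/PS1dE9 and 7.79 to 8.04 in WT. Aif1, which encodes the microglial protein Iba1, was at 2.22 ± 0.07. Ptprc and P2ry12 did not pass the filter: Ptprc was above background on 2 APPswe/PS1dE9 and 1 WT channels, and P2ry12 on 1 and 0. Of 9 astrocyte markers, 5 were higher (mean level 12.8 to 12.9 against 12.3 to 12.6), Gfap at 0.69 ± 0.06 among them. Of 10 neuron markers, 4 were lower (2.29% of all features were) and 1 higher (12.5 to 12.7 against 12.7 to 12.9). Their ratios ran from -0.80 to 0.43, and Tubb3, at -0.13 ± 0.08, did not pass. Of 10 oligodendrocyte lineage markers, none passed in limma at the adjusted threshold and 1 in each direction had an unadjusted p under 0.05, with Mbp at 0.09 ± 0.07 (levels 11.6 to 11.8 against 11.5 to 11.8). Of 8 progenitor and proliferation markers, 2 were higher and 1 lower (12.22 to 12.38 against 12.04 to 12.30), with Nes at 0.55 ± 0.13 and Mki67 at 0.05 ± 0.11. Nes was at 0.05 on replicate 1 and at 0.61 to 0.83 on the others, its fitted ratio was 0.35 without replicate 2, and it lost its call in 7 of 16 alternatives, those without replicate 3 or 4 included. The part of these markers in the values below was not tested, and in such bulk RNA fewer cells of a type and less RNA per cell cannot be told apart.

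Values below are log2 ratios of APPswe/PS1dE9 over WT, so a negative value is a lower level in APPswe/PS1dE9, and a fitted ratio is given ± SE over n = 4 arrays. A level is a normalized log2 intensity of 1 probe in 1 channel, which can be set against the same probe on other arrays but not against another gene.

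**Figure D1:**
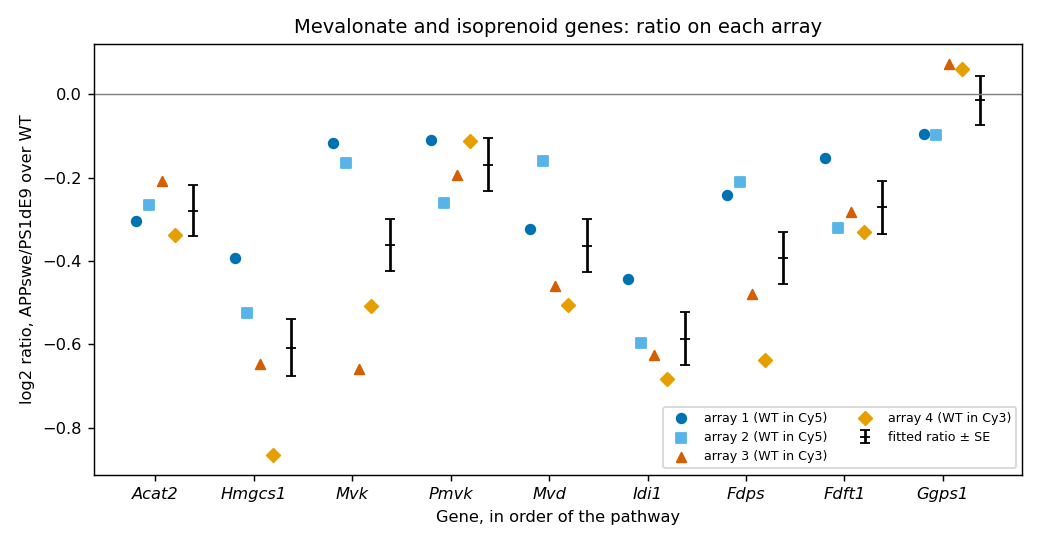
Log2 ratio of APPswe/PS1dE9 over WT (vertical axis) for the 9 genes in pathway order, with a symbol for each of 4 arrays and, in black, the fitted ratio ± SE. Every gene but Ggps1 lies below 0 on all 4 arrays, and Hmgcs1 and Idi1 lie lowest, at -0.61 and -0.59.

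The first steps make HMG-CoA. Acat2, the cytosolic thiolase that joins acetyl-CoA units, was at -0.30, -0.27, -0.21 and -0.34 on replicates 1 to 4. The 4 arrays lay close together, and the fitted ratio was -0.28 ± 0.06, a level 17.6% lower. Its level was 9.29 to 9.52 in APPswe/PS1dE9 and 9.56 to 9.85 in WT, without overlap.

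Hmgcs1, the synthase that adds a further acetyl unit to give HMG-CoA, was the member of lowest ratio. Its ratios were -0.39, -0.53, -0.65 and -0.87, for a fitted ratio of -0.61 ± 0.07 (1.52-fold lower). Replicate 4 was the lowest of the arrays and replicate 1 the highest. All 4 APPswe/PS1dE9 levels, 14.6 to 14.8, were below all 4 WT levels, 15.2 to 15.4. Its promoter window held TCACCCCAC, and that of Idi1, the gene of next lowest ratio, did not. Any relation of these letters to the ratios was not tested.

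Mevalonate is then phosphorylated and decarboxylated. Mvk, the first kinase, was at -0.12, -0.16, -0.66 and -0.51, so that replicates 3 and 4 were far below replicates 1 and 2. The fitted ratio was -0.36 ± 0.06, and this SE leaves out the difference between the dye orientations. APPswe/PS1dE9 levels (11.1 to 11.6) overlapped WT levels (11.6 to 11.8) across arrays, although APPswe/PS1dE9 was lower within each array.

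Pmvk, the kinase that adds the second phosphate, differed less. Its ratios were -0.11, -0.26, -0.19 and -0.11, and the fitted ratio was -0.17 ± 0.06 (a linear ratio of 0.890). Pmvk was below 0 on all 4 arrays but did not pass the adjusted threshold, and its levels of 12.4 to 12.6 in APPswe/PS1dE9 lay just under the 12.6 to 12.7 of WT.

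Mvd, the decarboxylase that yields isopentenyl diphosphate, was at -0.32, -0.16, -0.46 and -0.51. The fitted ratio was -0.36 ± 0.06, as for Mvk. Its levels did not overlap, at 9.33 to 9.62 in APPswe/PS1dE9 and 9.74 to 10.1 in WT.

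Idi1 interconverts isopentenyl diphosphate with dimethylallyl diphosphate, the primer of chain growth. Its ratios of -0.44, -0.60, -0.62 and -0.68 spread less than those of Hmgcs1, with an SD over arrays of 0.10 against 0.20. The fitted ratio was -0.59 ± 0.06 (a linear ratio of 0.666), and APPswe/PS1dE9 levels (11.6 to 11.9) lay below WT levels (12.2 to 12.3).

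The prenyltransferases follow. Fdps, which builds farnesyl diphosphate, was at -0.24, -0.21, -0.48 and -0.64, with a fitted ratio of -0.39 ± 0.06 and levels of 12.9 to 13.0 against 13.2 to 13.6. As with Mvk, replicates 3 and 4 were the lower arrays.

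At the branch point stand the enzymes of the sterol and the geranylgeranyl arms. Fdft1, squalene synthase, which joins farnesyl diphosphate units head to head, was at -0.15, -0.32, -0.28 and -0.33, with a fitted ratio of -0.27 ± 0.06. Its levels, 11.1 to 11.4 in APPswe/PS1dE9 and 11.4 to 11.6 in WT, nearly met but did not overlap. Ggps1, which makes geranylgeranyl diphosphate, was at -0.09, -0.10, 0.07 and 0.06. It was below 0 on replicates 1 and 2 and above 0 on replicates 3 and 4, the fitted ratio was -0.01 ± 0.06 (95% interval -0.16 to 0.13), and its levels overlapped (10.5 to 10.9 against a WT range that begins at 10.5). The difference between Fdft1 and Ggps1 was not tested.

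**Figure D2:**
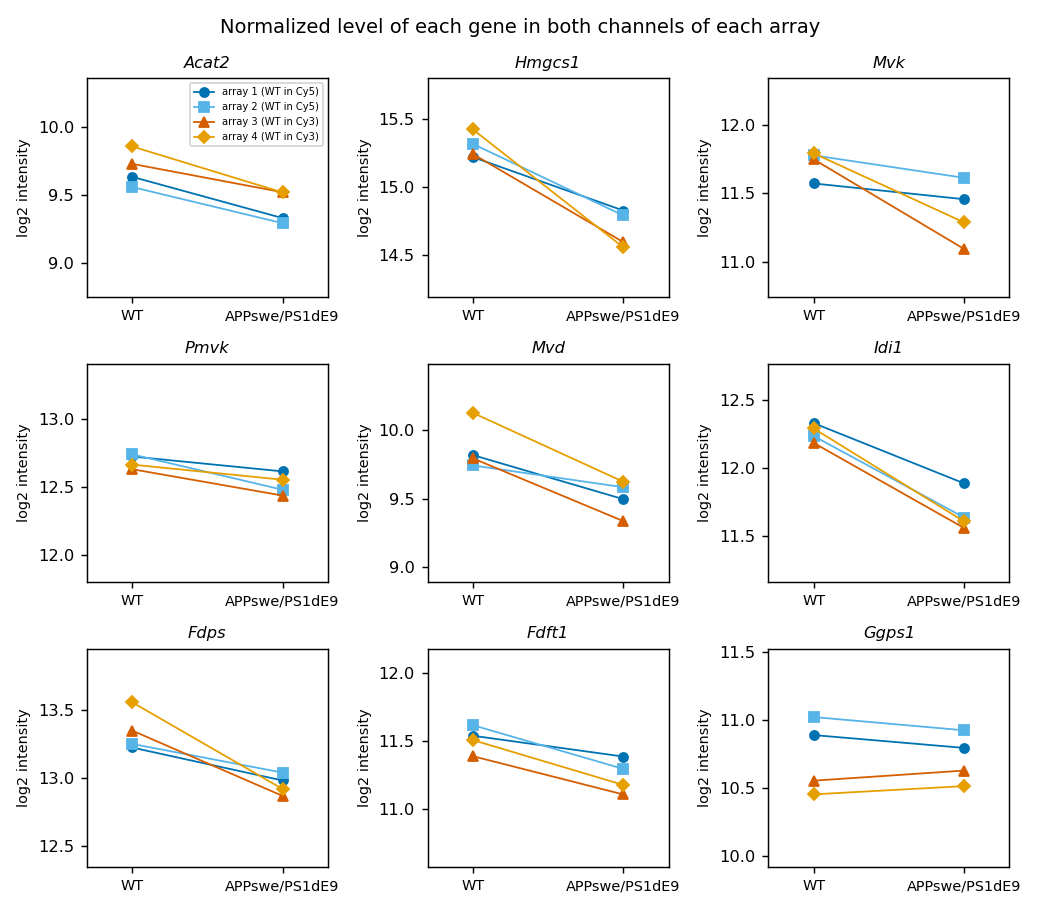
Normalized log2 intensity of each of the 9 genes in the WT and APPswe/PS1dE9 channel (vertical axis, 1.6 log2 units in every panel), with a line for each of 4 arrays. All lines slope down from WT to APPswe/PS1dE9 in 8 genes, and in Ggps1 replicates 3 and 4 slope up.

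Of the 9 members, 7 were lower at a limma adjusted p under 0.05, as were 2.29% of all features, and Pmvk and Ggps1 did not pass. Their median log2 ratio was -0.36, beside 0.01 over all features. Ratios were below 0 on 4 of 4 arrays in 8 members (11.7% of features), and levels of the genotypes did not overlap in 7 (4.49% of features for lower levels in APPswe/PS1dE9), the exceptions being Mvk and Ggps1. These counts come from the contrast by which the pathway was chosen, so nothing is read from them. Without replicate 3 only Hmgcs1 passed, and without replicate 4 none did, while 7 had an unadjusted limma p under 0.05 in either case. Over all features the lower calls also went down there, from 472 to 29 and to 7, and the members' median stayed at -0.32 and -0.35.

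The arrays differed in how low the members were. The median over members was -0.24 and -0.26 for the Cy3 pair (replicates 1 and 2) but -0.46 and -0.51 for the Cy5 pair, where the median over all features was between -0.01 and 0.03 on every array. Mean ratios were lower in the orientation with APPswe/PS1dE9 in Cy5 in 6 members. Mvk went from -0.14 to -0.58, Fdps from -0.23 to -0.56 and Hmgcs1 from -0.46 to -0.76, whereas Acat2 was at -0.28 and -0.27. Pmvk (-0.18 and -0.15) and Ggps1 (-0.10 and 0.07) were slightly higher. Dye and culture cannot be told apart here, since each orientation holds other cultures. A fit without the dye term, whose SE includes this difference, put 4 members past the threshold, namely Hmgcs1, Idi1, Mvd and Fdps.

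Cultures also differed in Xist and the Y-linked Eif2s3y. On the 2 arrays, replicates 2 and 4, with Xist above background in both cultures and Eif2s3y in neither, Hmgcs1 was at -0.70, Idi1 at -0.64 and Ggps1 at -0.02. The median was -0.33 and all 9 ratios were below 0. No member passed the limma threshold on 2 arrays, and 4 had an unadjusted p under 0.05.

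A pair of probes could be compared in 3 members. The dimmer Mvk probe was at -0.21 ± 0.06 against -0.36 for the brighter one, and on replicate 1 it was at 0.02. For Pmvk the other probe was at -0.22 ± 0.07, close to -0.17. The other Ggps1 probe was at 0.05 ± 0.08, likewise near 0, with array values from -0.23 to 0.25. The remaining Fdft1 probe was not above background in any channel, with 2.00 to 4.12 times the local background, and was left out. The brighter probes of the 9 genes were between 13.7 and 2113 times the local background, Acat2 holding the lowest value and Hmgcs1 the highest. Acat2 has the close copy Acat3 in the mouse, and how far their probes separate them was not tested.

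The authors' deposited table, made from Feature Extraction's processed signals, held values for all 9 members. In that deposited table Hmgcs1 was at -0.35, -0.44, -0.60 and -0.89 on replicates 1 to 4. Idi1 in the authors' deposited table was at -0.50, -0.62, -0.72 and -0.75. The same deposited table put Ggps1 at -0.13, -0.14, 0.11 and 0.03, again on both sides of 0.

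**Figure D3:**
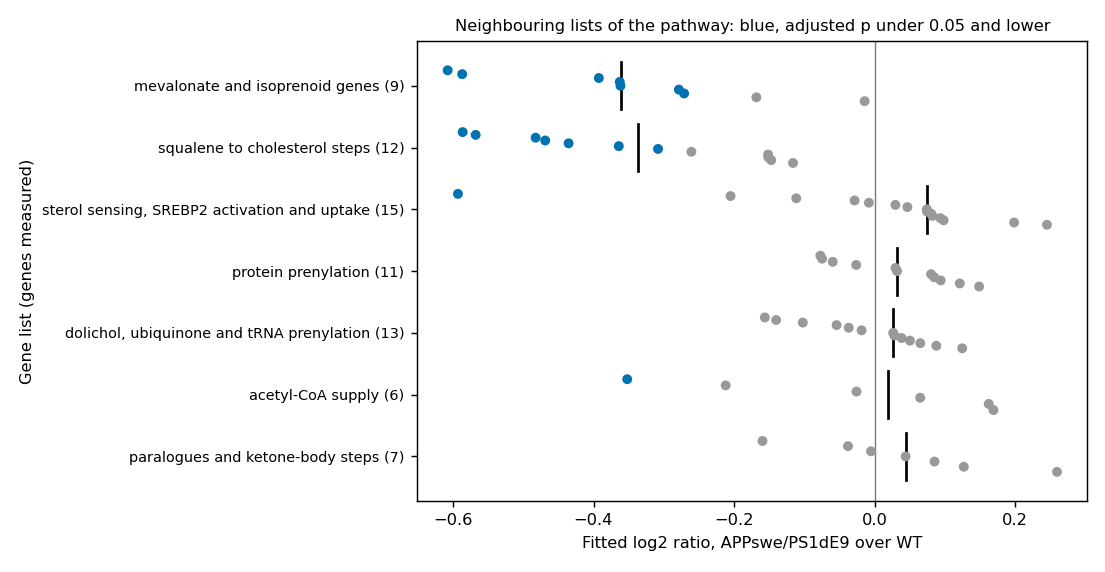
Fitted log2 ratio of APPswe/PS1dE9 over WT (horizontal axis) for each measured gene of the 9-gene list and of 6 neighbouring lists, with blue points past the adjusted threshold as lower and a black bar at each list's median. The first 2 lists centre at -0.36 and -0.34, and the medians of the other 5 lie between 0.02 and 0.07.

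Neighbouring parts of the pathway are given by the same fit. After squalene, 7 of 12 sterol-arm genes were lower and none higher, where 2.29% and 8.27% of all features were. The other 5 did not pass, and the list's median was -0.34. The count was 3 with Feature Extraction's processed signals and with the deposited table, 4 without the filter on dim probes, 1 without replicate 3, and 0 without replicate 4 or on the pair of arrays matched for Xist. Cyp51, the sterol demethylase, was at -0.59 ± 0.06, the reductase Tm7sf2 at -0.57 ± 0.08, the cyclase Lss at -0.48 ± 0.09, the oxidase Msmo1 at -0.47 ± 0.06, the desaturase Sc5d at -0.44 ± 0.07 and the dehydrogenase Nsdhl at -0.36 ± 0.07. Of the 16 alternatives, Nsdhl lost its call in 9, Lss in 6, Msmo1 in 5, Tm7sf2 and Sc5d in 3 each and Cyp51 in 2. With the mean over probes Nsdhl was at -0.26 (limma adjusted p = 0.0647). The isomerase Ebp had the highest value of the sterol-arm list (-0.12 ± 0.06). Sqle, squalene epoxidase, chosen after its values were seen, passed at -0.31 ± 0.07 but its arrays differed by orientation, -0.06 and 0.06 with APPswe/PS1dE9 in Cy3 against -0.52 and -0.72 with it in Cy5.

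Upstream, the acetyl-CoA synthetase Acss2 was lower, at -0.35 ± 0.06 (limma adjusted p = 0.0230), and the other 5 of 6 acetyl-CoA supply genes did not pass. Acss2 lost its call in 7 of the 16 alternatives, among them those without replicate 2, 3 or 4 (limma adjusted p = 0.0535, 0.0993 and 0.139), and its ratio stayed between -0.47 and -0.31. The citrate carrier Slc25a1 was the highest of them, at 0.17 ± 0.06, but its sign turned with orientation, from 0.42 and 0.39 with APPswe/PS1dE9 in Cy3 to -0.03 and -0.11 with it in Cy5.

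Of 15 measured genes of sterol sensing, SREBP2 activation and uptake, 1 was lower and the other 14 missed the threshold. Their median was 0.07. The gene that passed was the sterol carrier Stard4, at -0.59 ± 0.06, which did not pass without replicate 3 or 4 (limma adjusted p = 0.0530 and 0.0597). The highest was Erlin2, which encodes a lipid raft protein of the endoplasmic reticulum, at 0.25 ± 0.07 (limma adjusted p = 0.0701). Srebf2 and Insig1, chosen after their values were seen, did not pass: Srebf2, which encodes SREBP2, was at 0.09 ± 0.12 and its retention factor Insig1 at -0.21 ± 0.08. Srebf2 was positive on replicate 2 alone, with -0.05, 0.67, -0.10 and -0.15 on replicates 1 to 4. Insig1 was lowest on replicate 1, with -0.44 there and -0.11, -0.11 and -0.17 on the others. Npc1l1, a sterol uptake transporter, did not pass the filter on dim probes.

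Genes that use the isoprenoids stood near 0. In limma, 0 of 11 protein prenylation genes passed at the adjusted threshold and 0 had an unadjusted p under 0.05, with a median of 0.03 and values from Rabggtb, a subunit of the Rab geranylgeranyl transferase (-0.08 ± 0.10), to the protease Zmpste24 (0.15 ± 0.07). Of 13 dolichol, ubiquinone and tRNA prenylation genes, limma also called 0, with 0 at an unadjusted p under 0.05. Their median was 0.03, and they ran from Pdss1, which makes the ubiquinone side chain (-0.16 ± 0.07), to Coq9 (0.12 ± 0.06). Ggps1 was within the range of these users of isoprenoids.

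Paralogues of the members and genes of ketone-body steps did not pass in the reported fit either. Among 7 measured, limma called 0, with 1 at an unadjusted p under 0.05. Acat3, the copy of Acat2, was lowest, at -0.16 ± 0.12. Acat3 was at 0.55 on replicate 2 and between -0.50 and -0.20 on the others. Its fitted ratio turned to 0.028 without replicate 1. Without replicate 2 it was -0.35 and passed as lower (limma adjusted p = 0.0329), and 1 other gene of the list passed as higher.

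The genes most like the members in their array values were found by the Euclidean distance, over 4 arrays, to the members' mean of -0.24, -0.29, -0.39 and -0.44. Among the 5 nearest were Fgf10 (distance 0.07), Acss2 (0.09), Pafah1b2 (0.10) and Amer3 (0.10). Acss2 supplies the pathway with acetyl-CoA, and the other 3 are not in its lists. Fgf10 had ratios of -0.29, -0.34, -0.39 and -0.41, but its fitted ratio of -0.36 became -1.18 with Feature Extraction's processed signals. With a normexp offset of 16 it was -0.53. Its probe was dim, and Fgf10 dropped out where both channels had to be above background on all arrays. Pafah1b2 had a fitted ratio of -0.32 ± 0.06 and Amer3 one of -0.34 ± 0.07.

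**Figure D4:**
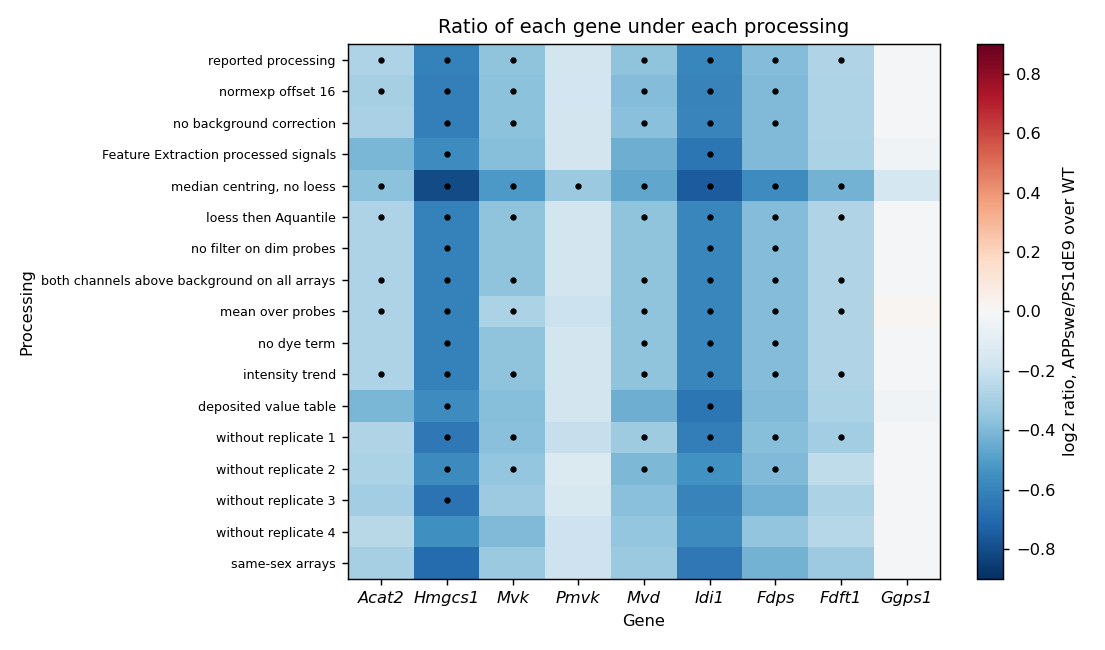
Fitted log2 ratio (colour, blue for lower in APPswe/PS1dE9) of the 9 genes (columns) under the reported processing and 16 alternatives (rows), with a dot where the adjusted p was under 0.05. Hmgcs1 and Idi1 stay the bluest columns in each row, while dots of the other genes come and go and Ggps1 stays near white.

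Under the 16 alternatives all members but Ggps1 kept a ratio below 0. Not all of these were separate checks of a ratio. Aquantile after loess repeated the reported ratios and calls. Both filter settings, the fit without the dye term and the intensity trend left every member's ratio unchanged. The deposited table repeats the processed signals, so the counts of lost calls here and above include such repeats. Hmgcs1 ranged from -0.81 to -0.55 and Idi1 from -0.75 to -0.55, and their calls were lost in 2 and 3 of the 16. Fdps (-0.56 to -0.35) lost its call in 5, Mvd (-0.46 to -0.32) in 6 and Mvk (-0.52 to -0.28) in 7. Acat2 (-0.41 to -0.25) and Fdft1 (-0.42 to -0.23) lost theirs in 10 each. Pmvk (-0.34 to -0.13) gained a call in 1, with median centring in place of loess. In that setting the median over all features was -0.07, beside 0.01 in the reported fit, and lower calls over all features rose from 472 to 1306. Ggps1 ran from -0.16 to 0.02 and passed in none.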

How the data were processed

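Cultures of both genotypes were compared on 4 two-colour Agilent arrays of 1 slide, read in 1 scan with Feature Extraction 11.0.1.1 and annotated on mm9, per the file headers. The authors deposited median spot and background intensity values, not normalized, and, per the file headers, processed intensity values with their log10 ratio. Their deposited value table holds log2 ratios of 29350 spots, which matched the processed signals, uncentred, as APPswe/PS1dE9 over WT (slopes -1.00, -1.00, 1.00 and 1.00 on Cy5 over Cy3), with column medians of -0.0797, -0.155, -0.0373 and -0.0378.

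Median signals were corrected with normexp (offset 50) and loess in limma 3.58.1 (R 4.3.3), without control and outlier spots. Probes well above background in 1 genotype on at least 3 of 4 arrays were kept, and a gene was represented by its brightest kept probe. Names came from RefSeq accessions (GRCm38.p6), which matched 27509 of 55681 probes. The fit had a genotype and a dye coefficient over all features, with 2 residual and 4.14 prior degrees of freedom, Benjamini-Hochberg adjustment and a threshold of 0.05. Its SE leaves out differences between dye orientations and draws each gene's variance towards a value common to all features. The dye term passed in 0 features, with 3116 at an unadjusted p under 0.05. Levels are per channel after loess and Aquantile. The normexp offset of 50 pulls ratios of dim spots towards 0, and 4 arrays limit precision.

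The members and lists were chosen with earlier results of these data known. Named genes were the members; in each list those past the threshold (at most 6) with its highest and lowest; the 5 nearest genes; and 6 cell type markers. Some genes of these lists entered the counts and medians but are not reported here by name. Alternatives changed the background correction, normalization, filter, choice of probe, dye term, variance trend, input table and arrays used; the closing section gives their effect.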

Additional observations from a re-analysis of the deposited data

How the results depend on the processing

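The members' median log2 ratio moved by less than the spread between arrays under all 16 alternatives, from -0.46 to -0.28. It stayed at the reported -0.36 with Aquantile, with both filter settings, without the dye term and with an intensity trend. The -0.46 came with median centring, where the median over all features was -0.07, beside 0.01 in the reported fit. The count of members lower past the threshold, 7, became 2 with Feature Extraction's processed signals and with the deposited value table, 3 without the filter on dim probes, where 37018 features were tested in place of 20572, 4 without the dye term, and 0 on the 2 arrays with Xist in both cultures and Eif2s3y in neither. Leaving out 1 replicate gave 0 to 6. For the 65 other pathway genes the count of lower genes, 10, became 5, 5 and 5 under the first 3 of these settings, 0 on the 2 arrays (limma, 9 at an unadjusted p under 0.05) and 0 to 9 without 1 replicate (0 without replicate 4, with 12 at an unadjusted p under 0.05, and 1 without replicate 3). No other pathway gene was higher in the reported fit, with 5 at an unadjusted limma p under 0.05, and 1 was with an intensity trend (Erlin2) and 1 without replicate 2, a range of 0 to 1. The 2-array setting changed more than 1 choice, since it also had no dye term; the cause of these changes was not tested.

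Over all features, lower calls numbered 472 in the reported fit, 241 with processed signals, 238 with the deposited table, 303 without background correction, 103 without the filter, 259 without the dye term, 11 on the 2 arrays, 7 to 518 without 1 replicate and 1306 with median centring. Median centring also made the split between higher and lower calls nearly even, at 1308 and 1306, where the reported fit had 1701 and 472. Signs turned in genes near 0: Ggps1 was at 0.016 with the mean over probes, Mbp at -0.041 with median centring and -0.018 with the mean over probes, Mki67 at -0.092 with median centring, and Acat3 at 0.031 on the 2 arrays. Without 1 replicate, Mki67 ran from -0.096 to 0.20, Rabggtb from -0.20 to 0.048 and Acat3 from -0.35 to 0.028. The ratio within an array already pairs the genotypes, and the labels pair no arrays beyond that.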
